A study of Homo sapiens with 4 samples.

Results

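The chaperones of the endoplasmic reticulum fold secreted and membrane proteins as these enter the secretory pathway. Here 10 such genes were followed: HSPA5, DNAJB9, SDF2L1, HYOU1, HSP90B1, CALR, CANX, PDIA4, PDIA6 and CRELD2. They were chosen as a functional family, with earlier results of these data known. Every probe that the platform annotation gives to 1 of these symbols was taken, which gave 12 probes among the 47231 on the array. HYOU1 and CANX had 2 probes each and the other 8 genes 1 each. All 12 probes were detected on all 4 arrays and passed the filter on dim probes, so all 10 genes were among the 10754 genes tested.

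The arrays came from LNCaP, an established human prostate cancer line that responds to androgen, cultured with fetal bovine serum. One group received the microRNA miR-31 and the other a control microRNA, miR-NC, each transfected at 50 nM and left for 48 h, with 2 arrays per group. The labels number the arrays as repeats without naming separate cultures, so p-values measure the spread between these arrays only, which may be technical. A transient transfection of 1 line sets the limits of the model, and arrays cannot tell less of an RNA per cell from fewer cells holding it.

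A probe counted as detected at a detection p under 0.05, and between 34.6% and 40.7% of probes were detected per array. The lowest and highest shares both belonged to miR-31 (replicates 1 and 2). Median signals before normalization ran from 74.6 to 92.5. Of 8 luminal prostate markers with a probe, 7 were detected on all 4 arrays, among them KLK3, KLK2 and HOXB13, and KRT18 was not. None of 5 fibroblast and 2 basal markers was detected on more than 1 array. Among 3 endothelial and 4 leukocyte markers, VWF and CD68 were detected on all 4 arrays, while PECAM1, CDH5, PTPRC, CD3E and CD14 were not. The luminal marker TMPRSS2 was lower in miR-31 (log2 change −0.72, limma adjusted p = 0.0191). VWF was lower too (log2 change −2.20, limma adjusted p = 0.00153) and CD68 stood at −0.004 (adjusted p = 0.996); their part in the chaperone results was not tested.

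In the lumen of the endoplasmic reticulum, BiP (encoded by HSPA5) binds unfolded chains in cycles of ATP hydrolysis that J-domain proteins start and exchange factors end. Calnexin and calreticulin hold glycoproteins by their trimmed sugars, and disulfide isomerases pair the cysteines. When unfolded protein accumulates, the sensors ATF6, IRE1 (ERN1) and PERK (EIF2AK3) start the unfolded protein response, in which ATF6 and XBP1 raise transcription of chaperone genes through short promoter elements. Secretory epithelium such as prostate depends on this machinery for its protein output. The transfected agent is a small RNA that lowers messenger RNAs bearing matches to its seed. The labels name it only as miR-31; the mature form that RefSeq gives on GRCh38.p14 (chr9:21512158-21512178, minus strand) is shown to identify it, with bases 2 to 8, the seed, in capitals.
hsa-miR-31-5p: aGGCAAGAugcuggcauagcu

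The shared promoter element of this family is shown first, because most of the family carries it. The classical ER stress element is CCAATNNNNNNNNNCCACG, whose CCAAT part is bound by NF-Y and whose CCACG part by ATF6 or XBP1. It was searched on both strands in windows from 250 bases before to 50 bases after each RefSeq start on GRCh38.p14. All 10 genes had a window, and 6 of them held the element, against 25 of 27305 genes in the table (0.0916%); by window the share was 0.0769%. Capitals mark the fixed letters, all read on the gene's own strand, so an element lying on the other strand appears as CGTGG before ATTGG. These members were picked as known stress-induced chaperones, and a match is a description of letters, not of binding.
HSPA5 (chr9:125241388-125241412, minus strand): tcaCCAATcggcggcctCCACGacg
HSP90B1, distal (chr12:103930213-103930237, plus strand): tgaCCAATcggaaggagCCACGctt
HSP90B1, proximal (chr12:103930318-103930342, plus strand): gtgCGTGGtgcggcgcgATTGGtgg
CALR (chr19:12938381-12938405, plus strand): acgCGTGGtcgaccatcATTGGtcg
CANX (chr5:179698775-179698799, plus strand): cggCCAATcttcacactCCACGaag
PDIA6 (chr2:10812850-10812874, minus strand): ggaCCAATgagccgcagCCACGgct
CRELD2 (chr22:49918551-49918575, plus strand): tctCGTGGcgaactcggATTGGgcc

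HYOU1 and SDF2L1 lacked the classical element and held the compact form, ER stress element II (ATTGGNCCACG, or CGTGGNCCAAT on the other strand), which was added to the search after the first results. That form was held by 19 of 27305 genes (0.0696%), a count that includes these 2, and by 1 of 81 genes of the wider list. HYOU1 held it 2 times, and the distal copy overlapped the family's only match to the unfolded protein response element TGACGTGG. That motif was found for 0.927% of all genes and for 9 of 81 genes of the wider list. The windows of DNAJB9 and PDIA4 held none of the 3 motifs.
HYOU1, proximal (chr11:119057271-119057287, minus strand): ggaCGTGGtCCAATgag
HYOU1, distal (chr11:119057377-119057393, minus strand): tgaCGTGGtCCAATccc
SDF2L1 (chr22:21642111-21642127, plus strand): aagCGTGGaCCAATcaa

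**Figure D1:**
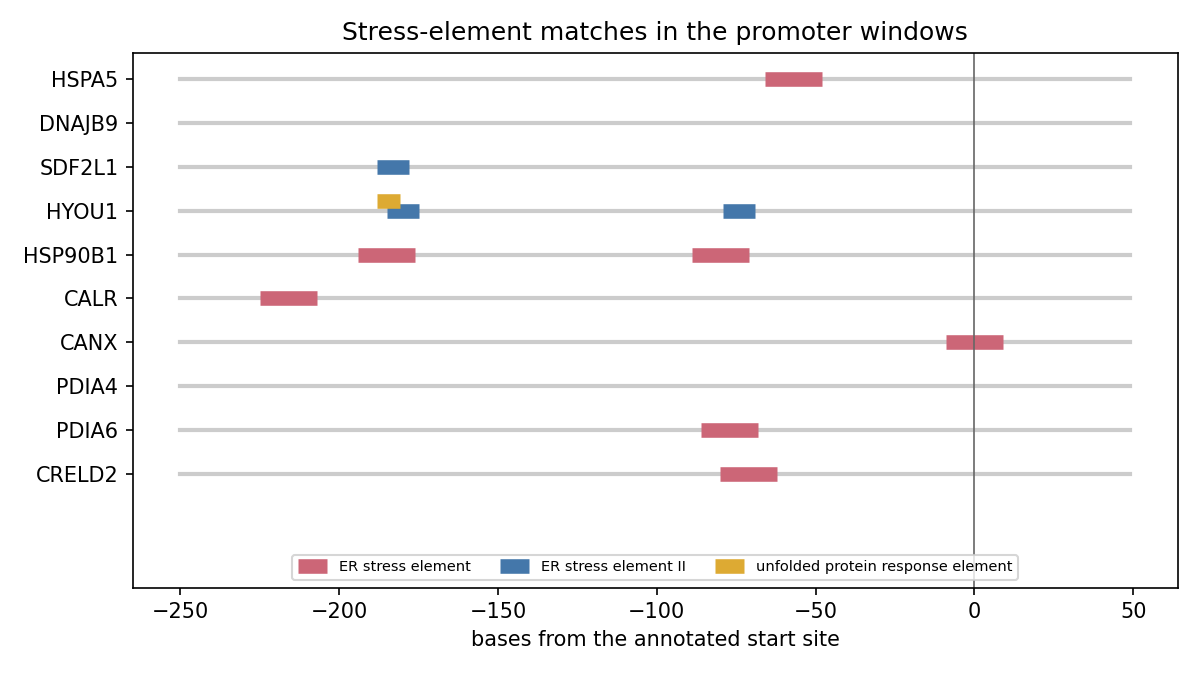
Positions of motif matches (coloured bars) along the promoter window of each gene (grey line), in bases from the annotated start at 0. CANX has 4 windows, of which 3 hold its 1 site, drawn in the window that places it nearest the start; PDIA4 and PDIA6 have 2 windows each, drawn on 1 line.

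Setting miR-31 arrays against miR-NC arrays asks how transcripts respond to added miR-31. CALR was lower in miR-31 cells and was the 1 gene of the 10 past the threshold, an adjusted p under 0.05 in limma. None was called higher. HYOU1, HSPA5 and PDIA6 had positive values that missed the threshold, and the other 6 genes had log2 changes from −0.30 to 0.17. Across all tested genes 2.43% were called higher, 5.24% lower and 7.66% in either direction, so 1 call among 10 genes is near that background. The family's median log2 change was −0.07, beside −0.02 over all tested genes, with 4 positive and 6 negative values. Beyond CALR, 2 members had an unadjusted p under 0.05 (HYOU1 and HSPA5), which makes 3 of 10 beside 25.3% of all tested genes.

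None of BiP and the 3 proteins grouped with it passed the threshold. HSPA5, the central HSP70 of the lumen, had normalized log2 signals of 7.50 and 7.08 on the miR-NC arrays and 7.77 and 8.09 on the miR-31 arrays. Both miR-31 arrays were above both miR-NC arrays, but the nearest pair was 0.27 apart and the miR-NC arrays themselves differed by 0.42. The log2 change was 0.64 ± 0.25 (SE, limma), 1.56-fold, with a 95% interval of 0.08 to 1.21 and an adjusted p of 0.168. Of the tested genes, 6.83% had a larger log2 change.

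HYOU1, also called GRP170, releases ADP from BiP and is a chaperone in its own right. Its brighter probe read 9.61 and 10.34 with miR-NC, against 10.76 and 11.0 with miR-31. Its dimmer probe read 9.0 and 10.05 with miR-NC, against 10.40 and 10.84 with miR-31. On both probes the miR-31 arrays were above the miR-NC arrays, and on both the widest gap inside a group was between the miR-NC arrays (0.73 and 1.05). The changes were 0.90 ± 0.23 (SE; 1.87-fold, limma adjusted p = 0.0519) and 1.09 ± 0.31 (SE; 2.13-fold, limma adjusted p = 0.0702). HYOU1 had the largest positive change of the 10 genes, and its size rested on miR-NC replicate 1: the brighter probe stood at 0.54 without that array (adjusted p = 0.160) and at 1.27 without miR-NC replicate 2 (adjusted p = 8.13e-06). Each of these fits leaves 1 control array, which is assumed to vary like the other group.

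DNAJB9 (ERdj4), a J-domain partner of BiP and a known target of XBP1, read 9.91 and 9.95 with miR-NC, against 9.76 and 10.04 with miR-31. The miR-NC values lay between the miR-31 values. The change was −0.03 ± 0.17 (SE), with a 95% interval of −0.40 to 0.35, or a miR-31 to miR-NC ratio of 0.757 to 1.28.

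SDF2L1, a luminal protein that works with J-domain partners of BiP, read 11.11 and 10.80 with miR-NC, against 10.86 and 10.45 with miR-31. The groups overlapped. Its change was −0.30 ± 0.19 (SE; limma adjusted p = 0.381).

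GRP94, the HSP90 of the lumen encoded by HSP90B1, read 12.06 and 12.26 with miR-NC, against 12.27 and 12.40 with miR-31. The lower miR-31 array and the higher miR-NC array were 0.001 apart, so the groups were separate by rank only. The change was 0.17 ± 0.14 (SE), with a 95% interval of −0.14 to 0.48 and a limma adjusted p of 0.516.

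**Figure D2:**
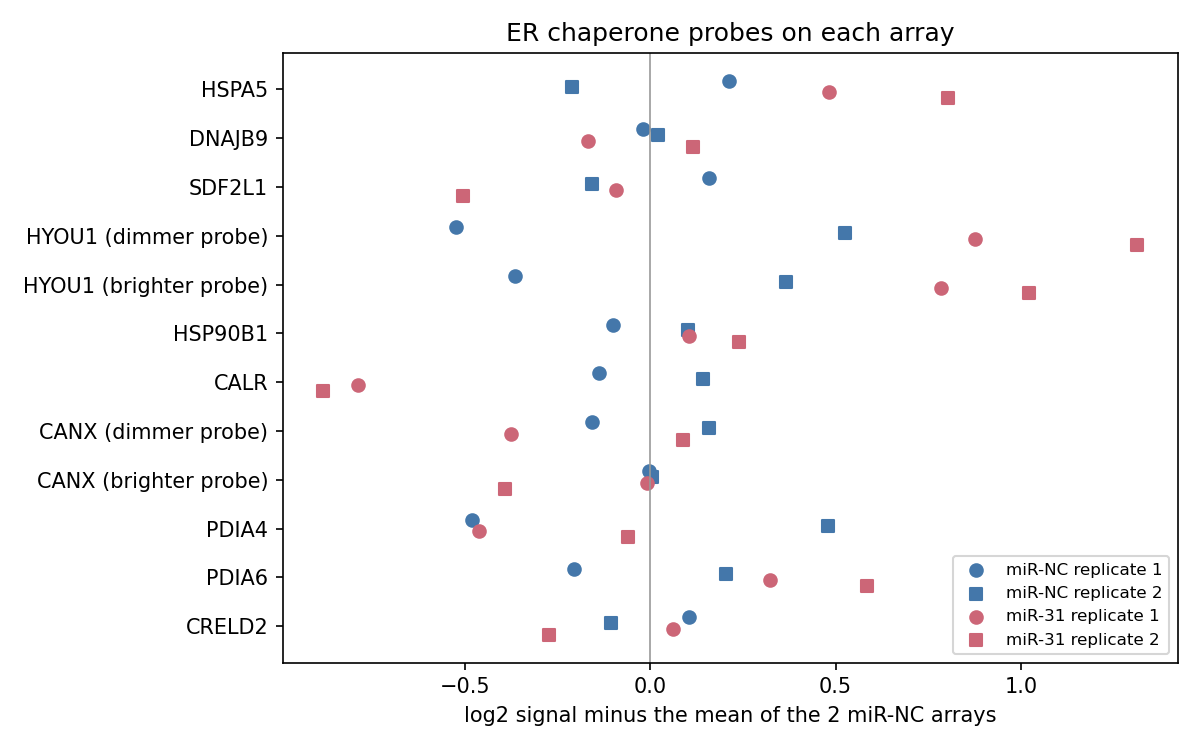
Normalized log2 signal of each of the 12 probes on each array, minus the mean of the 2 miR-NC arrays (horizontal axis). Both miR-31 arrays lie to the right of both miR-NC arrays for HYOU1, HSPA5 and PDIA6 and well to the left for CALR, while most other probes overlap.

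The lectin chaperones included the family's 1 call. CALR, the soluble lectin calreticulin, read 11.75 and 12.03 with miR-NC, against 11.10 and 11.0 with miR-31. Before normalization its signals were 4368 and 3773 against 1792 and 2123. The array medians then were 92.5 and 86.4 against 82.5 and 74.6, so those signals also carry differences between whole arrays. Every miR-31 reading was below every miR-NC reading, by 0.65 to 1.02, while arrays of the same group differed by 0.28 and 0.09. CALR fell 1.79-fold (log2 change −0.84 ± 0.15, SE; 95% interval −1.17 to −0.50; limma adjusted p = 0.0134), and 2.85% of tested genes had a smaller p. The value stayed between −0.99 and −0.69 under all 15 alternatives, but several of these could not move it. Those were the changes of filter, variance trend and threshold, the replicate block, and averaging over its 1 probe. The call itself was lost under median alignment of the arrays (adjusted p = 0.627) and without a variance trend (0.0969). Calls over all probes also fell in these settings, from 1132 to 106 and 359. The CALR call was lost too without miR-31 replicate 1 (log2 change −0.87) or replicate 2 (−0.79), as were all other calls on the array. Those fits leave 1 miR-31 array.

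CANX encodes calnexin, the membrane-bound relative of calreticulin in the same glycoprotein cycle. Its brighter probe read 7.86 and 7.87 with miR-NC, against 7.86 and 7.47 with miR-31. Replicate 1 of miR-31 matched the controls and replicate 2 lay below them. The change was −0.20 ± 0.23 (SE; 95% interval −0.72 to 0.32; limma adjusted p = 0.676), and the dimmer probe gave −0.14 ± 0.26 (SE; adjusted p = 0.804). The CANX interval overlaps that of CALR, and the difference between the genes was not tested.

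The disulfide isomerases showed no call. PDIA6 (P5), an isomerase that also acts on the stress sensors, read 8.45 and 8.86 with miR-NC, against 8.98 and 9.24 with miR-31. The miR-31 arrays were above both controls, by as little as 0.12, and the miR-NC arrays differed by 0.41. Its change was 0.45 ± 0.21 (SE; 1.37-fold; 95% interval −0.02 to 0.93; limma adjusted p = 0.241).

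PDIA4 (ERp72), a larger member of the same enzyme family, read 6.50 and 7.46 with miR-NC, against 6.52 and 6.92 with miR-31. Its miR-NC arrays were farther apart (0.96) than the means of its groups. The change of −0.26 ± 0.34 (SE; limma adjusted p = 0.726) became 0.22 without miR-NC replicate 2, so no direction can be given.

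CRELD2, a stress-induced luminal protein for which isomerase activity has been described, read 10.71 and 10.50 with miR-NC, against 10.66 and 10.33 with miR-31. The groups overlapped and the change was −0.11 ± 0.17 (SE; limma adjusted p = 0.775).

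**Figure D3:**
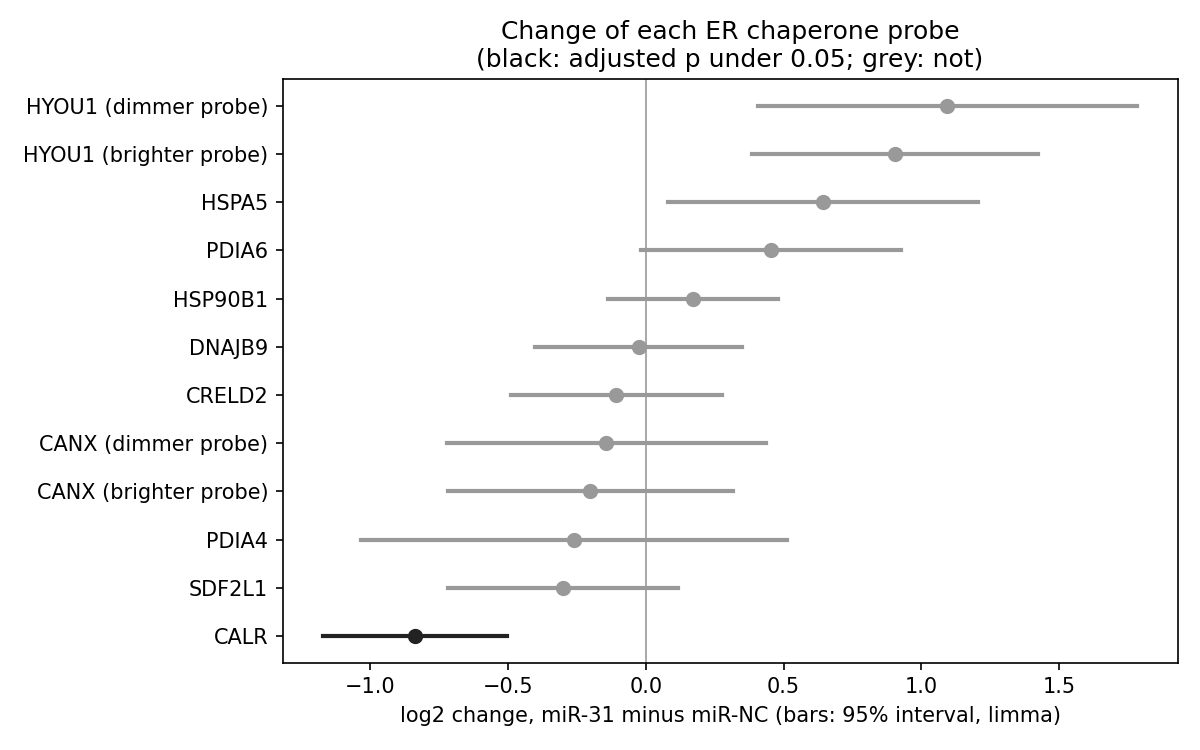
Log2 change of each of the 12 probes (points) with its 95% interval from limma (bars), ordered by size; black marks an adjusted p under 0.05 and grey the others. CALR at −0.84 is the only black point, and the intervals of HYOU1 and HSPA5 stay above 0 before adjustment.

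Across the family, 4 genes had both miR-31 arrays above both miR-NC arrays (HSPA5, HYOU1, HSP90B1 and PDIA6), 2 had both below (CALR and CANX), and 4 overlapped. HSP90B1 and CANX were near ties, with nearest pairs differing by 0.001 and −0.006, and the dimmer CANX probe overlapped. Over all tested genes 24.8% lay wholly above and 30.1% wholly below. Of the 6 genes with the classical stress element, CALR alone passed the threshold. HSPA5, PDIA6 and HSP90B1 had values of 0.64, 0.45 and 0.17, while CALR, CANX and CRELD2 had −0.84, −0.20 and −0.11. The genes with the compact element stood at 0.90 (HYOU1) and −0.30 (SDF2L1), and neither passed. The genes with no match, DNAJB9 and PDIA4, had −0.03 and −0.26.

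The rest of the folding and quality-control machinery was read from a list of 91 genes in 8 roles, chosen with earlier results of these data known. Its shares, set beside those of all genes, are therefore a description and not a test. Of the 91 genes, 73 were tested. Of these, 5 were higher, 0 lower and 68 did not pass (6.85% higher beside 2.43% of all genes). At an unadjusted p under 0.05 there were 18 higher and 3 lower, beside 10.7% and 14.7% of all genes. The 18 include ERP44, which passed the filter on dim probes through the miR-31 arrays alone. The median log2 change of the list was 0.09, with 44 positive and 29 negative values (60.3% positive, beside 48.2% of all genes). The 5 were HSPA13, CRELD1, FKBP2, MAN1B1 and CLGN. None of the 5 was called under median alignment, without a variance trend or without either miR-31 array. CRELD1 and MAN1B1 alone kept theirs with the authors' values and with no filter on dim probes, and HSPA13 and CRELD1 alone without miR-NC replicate 1. FKBP2 also lost its call with cyclic loess and HSPA13 with its probes averaged. Without miR-NC replicate 2 the genes called higher were 6.45% of all tested genes, and the list had 12, now with QSOX1, NPLOC4, EDEM1, SELENOS, SSR2 and SDF4 among them, and ERO1A passed without miR-NC replicate 1.

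The sensors and transcription factors of the stress response were not called, with 7 of 9 tested and values from −0.64 to 0.28. EIF2AK3, which encodes the sensor kinase PERK, read 8.29 and 8.15 with miR-NC, against 7.49 and 7.66 with miR-31, a change of −0.64 ± 0.21 (SE; limma adjusted p = 0.114). DDIT3, the transcription factor CHOP that PERK signalling induces, stood at 0.28 ± 0.14 (SE; adjusted p = 0.263). The proteases that cut and activate ATF6 had values of −0.21 for MBTPS2 and −0.17 for MBTPS1. Their other probes ran the other way, at 0.18 and 1.37, and did not pass either (adjusted p = 0.785 and 0.189). ERN1 and ATF6B were not detected well enough to be tested.

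Among partners of BiP, 1 of 10 tested genes was higher, beside 2.43% of all genes, and its call did not hold under median alignment. HSPA13, a microsomal relative of HSP70, read 7.18 and 7.0 with miR-NC, against 7.97 and 8.27 with miR-31, with no overlap. It rose 2.04-fold (1.03 ± 0.23, SE; limma adjusted p = 0.0347), while its second tested probe stood at 0.37 (adjusted p = 0.452). The other named partners did not pass: CDNF and MANF, a pair of related luminal proteins with neurotrophic activity, at −0.50 and −0.26, and SEC63, the J-domain protein of the translocon, at 0.30.

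Disulfide isomerases and oxidases had no call among 14 tested genes. At an unadjusted p under 0.05, 5 were higher and 1 lower, beside 10.7% higher and 14.7% lower of all genes. In either direction that is 6 of 14, beside 25.3% of all genes. The 5 include ERP44, which was detected on neither miR-NC array and passed the filter on dim probes through the miR-31 arrays alone. ERO1A, the oxidase that recharges the isomerases, stood at 0.84 ± 0.22 (SE; limma adjusted p = 0.0547). QSOX1, a sulfhydryl oxidase, and TXNDC11, a thioredoxin-domain protein, stood at 0.63 and 0.55. TMX4, a membrane-bound isomerase, stood at −0.72 ± 0.21 (SE; adjusted p = 0.0780) at its brighter probe, while its dimmer probe passed at −1.50 ± 0.26 (SE; adjusted p = 0.0122).

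Prolyl isomerases and client-specific chaperones had 2 higher genes of 8 tested, beside 2.43% of all genes. Neither call held under median alignment of the arrays. CRELD1, the membrane-anchored relative of CRELD2, read 9.36 and 9.39 with miR-NC, against 10.41 and 10.14 with miR-31. It rose 1.87-fold (0.90 ± 0.17, SE; limma adjusted p = 0.0162), beside −0.11 for CRELD2; its other 3 probes were not detected on enough arrays to be tested. FKBP2, a luminal prolyl isomerase, read 7.46 and 8.14 with miR-NC, against 8.73 and 8.90 with miR-31, and rose 2.02-fold (1.01 ± 0.25, SE; adjusted p = 0.0495), close to the threshold. FKBP11, another prolyl isomerase, stood at −0.58 (adjusted p = 0.157). PPIB, cyclophilin B, stood at 0.61 (adjusted p = 0.268) and was detected on 1 miR-NC array only.

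The lectin cycle, in which CALR and CANX act, had 2 higher genes of 6 tested, beside 2.43% of all genes. Neither call held under median alignment of the arrays. MAN1B1, a mannosidase that marks glycoproteins for disposal, read 8.57 and 9.02 with miR-NC, against 9.72 and 9.82 with miR-31. It rose 1.96-fold (0.97 ± 0.20, SE; limma adjusted p = 0.0230). CLGN, calmegin, a relative of calnexin known from the testis, read 8.60 and 8.71 with miR-NC, against 9.33 and 9.48 with miR-31. It rose 1.69-fold (0.76 ± 0.18, SE; adjusted p = 0.0398), and its dimmer probe passed too (1.02 ± 0.26, SE; adjusted p = 0.0491). GANAB, the catalytic subunit of glucosidase II, stood at 0.65 (adjusted p = 0.128) and UGGT2, a glucosyltransferase that checks folding, at 0.32 (adjusted p = 0.420).

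Genes of degradation from the endoplasmic reticulum had no call among 15 tested, with 12 positive values and a median log2 change of 0.25. NPLOC4, a cofactor of the segregase VCP, stood at 1.27 ± 0.33 (SE; limma adjusted p = 0.0539), and its partner UFD1 at 0.62 (adjusted p = 0.187). EDEM1, a mannosidase-like protein of glycoprotein disposal, stood at 0.68 (adjusted p = 0.0935). SELENOS, a selenoprotein of the disposal complex, stood at 0.43 (adjusted p = 0.0947), and its other probes gave 0.40 and −0.63.

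Retrieval receptors and translocation genes had no call among 8 tested. The translocon-associated subunits SSR4 and SSR2 stood at 0.36 and 1.49 (limma adjusted p = 0.144 and 0.163), and the SSR2 groups overlapped. SEC62, a partner of the protein channel, and SEC61A1, its pore, stood at −0.39 and −0.21. Luminal calcium binders had no call among 5. SDF4 stood at 0.84 (adjusted p = 0.137), RCN2 at 0.15 and CALU at 0.03. RCN3 was not detected on either miR-31 array, so its value there is only a bound, and it did not pass (adjusted p = 0.296).

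**Figure D4:**
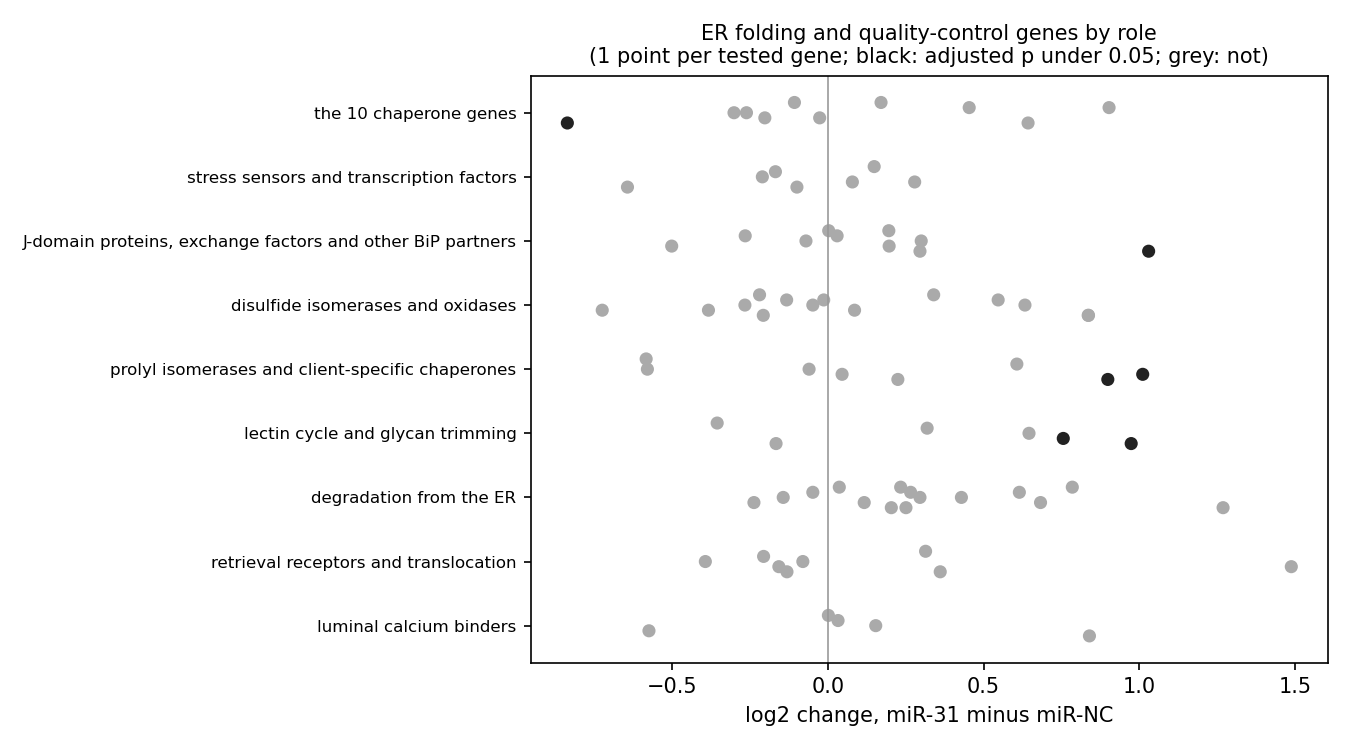
Log2 change of each tested gene (1 point per gene) for the 10 chaperones, top row, and the 8 roles of the wider list; black marks an adjusted p under 0.05. The called points are CALR at −0.84 and, to the right, HSPA13, CRELD1, FKBP2, MAN1B1 and CLGN between 0.76 and 1.03.

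**Figure D5:**
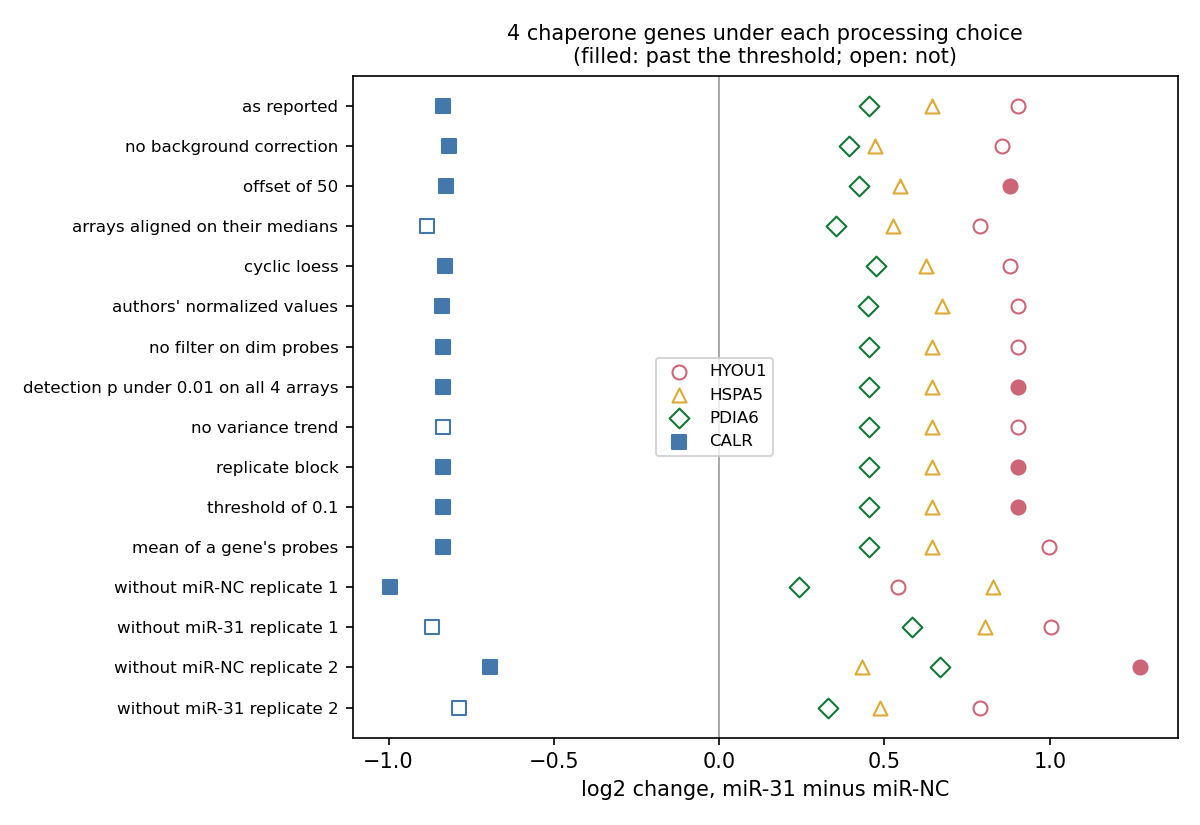
Log2 change of HYOU1, HSPA5, PDIA6 and CALR as reported and under 15 other processing choices; filled symbols are past the threshold used in that row. CALR stays between −0.99 and −0.69 and HYOU1 between 0.54 and 1.27, and which symbols are filled changes with the row. Rows that change the filter, variance trend, block or threshold cannot move the log2 change.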

How the data were processed

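The authors deposited non-normalized Illumina probe intensity on a linear scale, per the file headers; the submitters' processing notes name BeadStudio. The deposited score beside each intensity, headed as a detection p, was 1 for bright and 0 for dim probes, so 1 minus it served as the detection p. The authors' second deposited table, normalized linear intensity with a common median of 14.3, was an alternative after a floor of 16 and log2. Intensities were normalized by neqc in limma 3.58.1 (R 4.3.3), with offset 16, quantile normalization and log2. Probes with detection p under 0.05 on at least 2 arrays were tested (18354). The fit used lmFit, then eBayes with an intensity trend, two-sided, with Benjamini-Hochberg adjustment over all tested probes. An exact permutation of 2 arrays against 2 cannot go below p = 0.333, so calls rest on the spread shared across probes, and the number of arrays limits all precision. The code was tested on simulated data.

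By the platform annotation 30113 probes had 1 symbol, 8 several and 17110 none. A gene was its brightest tested probe. Named genes were all members and, in each role, up to 4 with the smallest p plus any called. The members and lists were chosen with earlier results of these data known. Alternatives changed the background, offset, normalization, filter, variance model, threshold and probe choice, used the authors' values or the replicate number as a block, or left out each array. Retrieval signals in the proteins, planned as a description, and the prostate tissues of the design text were not analysed here.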

Additional observations from a re-analysis of the deposited data

How the results depend on the processing

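The filter, variance trend, block and threshold settings left the log2 change of each chaperone gene as reported. Probe averaging did so for the 8 genes with 1 probe. In those cases the direction was fixed and only the side of the threshold could change. Of 150 values for the 10 chaperone genes under the alternatives, 138 kept their direction and their side of the threshold. Of the rest, 4 lost a call (CALR), 5 gained one (HYOU1) and 3 changed sign. None of the 3 was past the threshold: with each array left out in turn, DNAJB9 ranged from −0.17 to 0.12 (highest without miR-31 replicate 1), PDIA4 from −0.71 to 0.22 (without miR-NC replicate 2) and CRELD2 from −0.27 to 0.061 (without miR-31 replicate 2). In the wider list MBTPS1 turned to 0.60 with its probes averaged, and CALU to −0.10 with arrays aligned on their medians and −0.05 without miR-NC replicate 2. HYOU1 made 1 chaperone higher at a threshold of 0.1, with the stricter filter (0.01), with the larger offset (50) and with the replicate block. Over all tested genes, 289 of 8520 were higher with the stricter filter and 274 of 10754 with the larger offset. With CALR lost, 0 were lower under median alignment and without a variance trend. Among all 10754 tested genes, 31 and 215 were lower in these settings, beside 563 as reported. Leaving out each array gave 0 to 1 higher and 0 to 1 lower chaperones, a median log2 change of −0.024 to 0.11 (−0.07 with all arrays, −0.18 under median alignment), and 0 to 12 higher genes of the wider list. With 1 array in a group, the lone array is assumed to vary like the other group. Higher genes of the wider list numbered 0 under median alignment and without a variance trend, 2 with the authors' values and with no filter, 9 at a threshold of 0.1 and 12 with the replicate block. Among all 10754 tested genes, 261 were higher as reported, 32 under median alignment and 53 without a trend. That number was 171 with the authors' values, 522 at a threshold of 0.1 and 707 with the block. With no filter, 160 of 20046 tested genes were higher. Lower genes of the wider list numbered 2 with the block and 1 at a threshold of 0.1 and with mean probes. Lower genes among all tested numbered 987, 911 and 566 in those settings, beside 563 as reported. All probes called numbered 1132, or 106 under median alignment, 359 without a trend, 2536 with the block, 2033 at a threshold of 0.1, and 0 to 2302 with arrays left out. The 0 arose without either miR-31 array. The replicate numbers are not stated to pair the arrays, and same-numbered arrays deviated together with r = 0.216 across probes. The cause of these shifts was not tested, except that fewer arrays or another threshold act by construction.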
